A study of Mus musculus with 4 samples.

Results

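The 9 genes described here encode iron-dependent enzymes that insert oxygen or double bonds into sterols, fatty acids and ceramides. They were Cyp51, Msmo1 and Sc5d of sterol synthesis, Scd1, Scd2, Fads1 and Fads2 of fatty acid desaturation, and Degs1 and Fa2h of sphingolipid synthesis. They were chosen by their role, and every probe set that the array annotation assigns to one of these symbols was taken. This gave 21 of the 45101 probe sets on the array, and 9 of the 18194 genes tested. The cells came from kidneys of chimeric mouse embryos on embryonic day 15.5. Wildtype blastocysts had been injected with 3 to 5 embryonic stem cells that carried green fluorescent protein (GFP) and lacked Tfrc, the gene of transferrin receptor 1. Kidneys were digested with collagenase and trypsin/EDTA and the cells sorted by GFP, and 50 ng of total RNA per sample was amplified for the array. There were 2 arrays of GFP-negative wildtype cells and 2 of GFP-positive cells labelled Tfrc-/-. Both groups came from chimeric kidneys, and the series includes no GFP-positive cells with Tfrc intact, so that loss of Tfrc and any other difference between donor and host cells cannot be told apart. The strain and the number of stem cell clones are not given in the sources used here.

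Most of the enzymes carry a pair of iron atoms held by clusters of histidine in a membrane protein, and Cyp51 is a cytochrome P450 with a haem. Each cycle draws electrons through cytochrome b5 or a P450 reductase and consumes molecular oxygen, so the products depend on iron as well as on lipid supply. In most tissues the sterol and desaturase genes are transcribed under the control of the SREBP factors, which are released from the endoplasmic reticulum when sterol is low. The kidney uses their products for the membranes of growing tubules, and sulphated and hydroxylated sphingolipids are known from its collecting ducts.

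The targeted gene was looked at first. Among 6 Tfrc probe sets, the mean of the labelled Tfrc-null arrays was the higher in 5, with log2 differences from 0.47 to 1.42, and the sixth, at the 5' end, was at the control level or below on all 4 arrays, with a log2 difference of -0.22. The sources used here do not say which exons were deleted, so a probe set outside them checks nothing, and the group is called "labelled Tfrc-null". The control level of an array, taken as the highest of 27 bacterial probe sets, lay between 7.18 and 9.08. The kidney genes Sall1, Wt1, Lhx1, Pax8, Hoxa11 and Hoxd11 lay far above it on every array, from 94.6 (Hoxd11) to 1871 (Sall1).

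The promoters of the 3 sterol oxidases are shown because these genes belong to one pathway whose other members are set beside them further on. They come from RefSeq (GRCm38.p6); promoters of 5 of the 9 members were used here. Each runs from 250 bases before the start of the gene to 50 bases after it, on the minus strand at chr5:4104648-4104947 for Cyp51, chr8:64733529-64733828 for Msmo1 and chr9:42264251-42264550 for Sc5d. Capitals mark CCAAT, the letters bound by the factor NF-Y, or its reverse complement ATTGG.
Cyp51: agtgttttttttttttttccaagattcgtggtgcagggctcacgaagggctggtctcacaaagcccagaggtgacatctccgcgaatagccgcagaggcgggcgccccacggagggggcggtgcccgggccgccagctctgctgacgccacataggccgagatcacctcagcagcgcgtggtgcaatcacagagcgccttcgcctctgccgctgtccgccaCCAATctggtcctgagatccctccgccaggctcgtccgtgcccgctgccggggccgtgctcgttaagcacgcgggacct
Msmo1: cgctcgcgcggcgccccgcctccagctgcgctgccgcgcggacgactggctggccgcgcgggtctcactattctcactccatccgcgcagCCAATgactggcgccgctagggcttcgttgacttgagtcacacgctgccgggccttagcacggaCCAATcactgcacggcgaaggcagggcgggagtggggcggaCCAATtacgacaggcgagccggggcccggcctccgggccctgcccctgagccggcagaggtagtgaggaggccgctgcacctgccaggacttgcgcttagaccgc
Sc5d: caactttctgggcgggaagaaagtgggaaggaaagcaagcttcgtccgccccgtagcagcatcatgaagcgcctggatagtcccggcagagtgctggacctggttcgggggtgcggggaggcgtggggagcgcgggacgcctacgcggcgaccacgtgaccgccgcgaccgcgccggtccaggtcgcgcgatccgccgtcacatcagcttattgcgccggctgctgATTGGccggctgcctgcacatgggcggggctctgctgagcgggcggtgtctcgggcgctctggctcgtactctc
The letters CCAAT were found 1 time in Cyp51, 3 times in Msmo1 and 1 time in Sc5d, where they lie on the opposite strand, and in none of the windows of Fads2 and Degs1. On either strand, 37.4% of 32851 promoters of this length hold them. GGGCGG, the GC box, was found 1 time in Cyp51, 2 times in Msmo1, 4 times in Sc5d, 1 time in Fads2 and not in Degs1. On either strand, 35.7% of all promoters hold at least 1. TCACNCCAC, a single spelling of the sterol regulatory element, was searched on both strands. These letters were in none of the 5 windows and in 1.24% of all promoters. Variant spellings of the element were not searched, so its absence from these windows is not shown. The CCAAT and GC box matches did not overlap one another in these windows. A match describes these letters and is not a measured binding site.

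No member differed between the groups at an adjusted p of 0.05. With limma and Benjamini-Hochberg adjustment, 0 of 9 members passed, as did 0 of 18194 genes (0%). At an unadjusted p under 0.05, 1 of 9 members (Scd1) was counted, against 8.02% of all genes. For these gene-level values a gene's probe set of highest mean log2 value over the 4 arrays was used. Both arrays of one group lay outside the range of the other for 3 of 9 members, Scd1 and Fads1 higher and Sc5d lower on the labelled Tfrc-null arrays, and for 34.9% of all genes, so this share was near the background. The median log2 difference was 0.06 over the members and 0.04 over all genes. A higher mean on the labelled Tfrc-null arrays was seen for 7 of 9 members and for 10469 of 18194 genes. With 2 arrays against 2, an exact permutation test has a smallest two-sided p of 0.33. No animals are named in the labels, which speak of biological replicates, so that the p-values measure the spread between these samples.

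**Figure D1:**
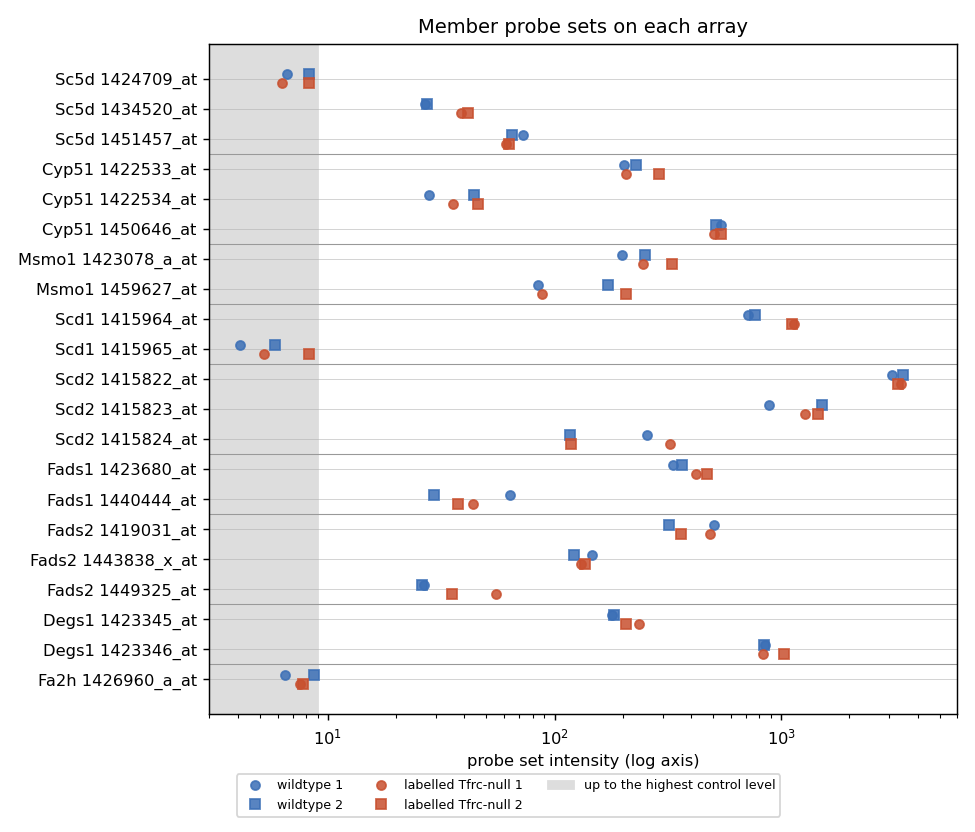
Intensity (log axis) of each of the 21 member probe sets on the 4 arrays, wildtype in blue and labelled Tfrc-null in red, with circles for replicate 1 and squares for replicate 2. The shaded band ends at the highest control level, 9.08; the Scd1 probe set 1415964_at shows both red points above both blue points, and Fa2h lies within the band.

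In sterol synthesis the 3 oxidases act in the order Cyp51, Msmo1, Sc5d on the way from lanosterol to cholesterol. Cyp51, which removes a methyl group from lanosterol, read 541 and 517 on wildtype and 508 and 542 on labelled Tfrc-null arrays at its probe set 1450646_at. The groups overlapped, and their means were 529 ± 16.9 and 525 ± 24.2 (SD, n = 2). The difference in log2 was -0.01 (SE 0.18, limma adjusted p = 1), with a 95% interval from -0.47 to 0.45. Its other probe sets read 204 and 230 against 207 and 290 (1422533_at) and 27.9 and 44.3 against 35.5 and 46.2 (1422534_at). Both overlapped between groups, and in both the replicate 2 array was the higher within each group.

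Msmo1, the methyl sterol oxidase that acts after Cyp51, read 198 and 251 on wildtype and 246 and 330 on labelled Tfrc-null arrays at probe set 1423078_a_at. The second wildtype array lay above the first labelled Tfrc-null array, so the groups overlapped. The log2 difference was 0.35 (SE 0.24, adjusted p = 0.857), with an interval from -0.27 to 0.97. Leaving out wildtype replicate 1 gave 0.18, and leaving out replicate 2 of the labelled Tfrc-null arrays 0.14. Leaving out wildtype replicate 2 gave 0.52, and replicate 1 of the labelled Tfrc-null arrays 0.56. Probe set 1459627_at read 84.9 and 172 against 88.1 and 206. There the arrays parted by replicate number and not by group, by 1.02 within wildtype and 1.22 within labelled Tfrc-null on the log2 scale.

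Sc5d, which introduces a double bond in the sterol ring near the end of the pathway, had 2 probe sets that differed in opposite directions. The probe set used for the gene, 1451457_at, read 72.5 and 65.0 on wildtype and 61.2 and 63.1 on labelled Tfrc-null arrays. Both labelled Tfrc-null arrays were thus lower, by 0.14 in mean log2 (SE 0.18, adjusted p = 0.957), and the difference was -0.065 without wildtype replicate 1 and -0.22 without wildtype replicate 2. At 1434520_at the values were 26.7 and 27.4 against 38.6 and 41.4, with both labelled Tfrc-null arrays higher. Here the log2 difference was 0.56 (SE 0.18), and the p adjusted over all probe sets was 0.592. The third, 1424709_at, read 6.63 and 8.23 against 6.30 and 8.26, above the control level on 1 array only, and gives no fold. With the mean of all probe sets the difference of Sc5d turned to 0.13, so its direction depends on the probe set.

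Of the probe sets that represent the genes, that of Scd1 had the largest difference; Fads2 1449325_at, a probe set not used for its gene, differed by more (0.76 in log2). Scd1 encodes a stearoyl-CoA desaturase, which turns saturated into monounsaturated fatty acids. Probe set 1415964_at read 716 and 765 on wildtype arrays and 1140.1 and 1121 on labelled Tfrc-null arrays. The spread within each group was small beside the gap between them, with means of 741 ± 34.7 and 1131 ± 13.3 (SD, n = 2). Scd1 was 1.53-fold higher (log2 difference 0.61, SE 0.18, interval 0.16 to 1.07, limma adjusted p = 0.46, unadjusted p = 0.0178) and did not pass over all genes. Leaving out any 1 array gave log2 differences from 0.56 to 0.66. Its second probe set, 1415965_at, read 4.11 and 5.84 against 5.23 and 8.24 and was above the control level on 1 array only.

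Scd2, a second stearoyl-CoA desaturase that is prominent in embryonic tissue, overlapped between the groups at all 3 of its probe sets. Probe set 1415822_at read 3092 and 3445 on wildtype and 3387 and 3275 on labelled Tfrc-null arrays, so that the wildtype arrays enclosed the others. The log2 difference was 0.03 (SE 0.18, adjusted p = 1, interval -0.44 to 0.50). The other probe sets of Scd2 read 882 and 1518 against 1278 and 1457 (1415823_at) and 255 and 117 against 324 and 119 (1415824_at). In the last, replicate 2 was lower by 1.13 on the log2 scale within wildtype and by 1.45 within labelled Tfrc-null, while replicate 2 was higher at 1415823_at in both groups. Scd genes are close copies, and probes of one can bind another. Whether the difference of Scd1 exceeds that of Scd2 was not tested.

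Fads1 and Fads2, neighbouring desaturase genes, make polyunsaturated fatty acids such as arachidonic acid from dietary precursors. Fads1 read 334 and 366 on wildtype and 422 and 473 on labelled Tfrc-null arrays at probe set 1423680_at, with both labelled Tfrc-null arrays higher. The log2 difference was 0.35 (SE 0.19, adjusted p = 0.759), with an interval from -0.12 to 0.83. Its other probe set, 1440444_at, overlapped, at 63.3 and 29.5 against 43.5 and 37.6, and its difference was -0.09. With both probe sets averaged the difference of Fads1 was 0.13. Fads2 read 503 and 321 against 487 and 363 at 1419031_at, with replicate 1 the higher in both groups and a difference of 0.06 (SE 0.30, adjusted p = 1). Probe set 1443838_x_at, whose suffix marks probes that may bind other transcripts, read 147 and 122 against 131 and 136. At 1449325_at, however, the values were 26.4 and 26.0 on wildtype and 55.4 and 35.4 on labelled Tfrc-null arrays. Both labelled Tfrc-null arrays were higher there, by 0.76 in mean log2 (SE 0.27), and the p adjusted over all probe sets was 0.63.

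**Figure D2:**
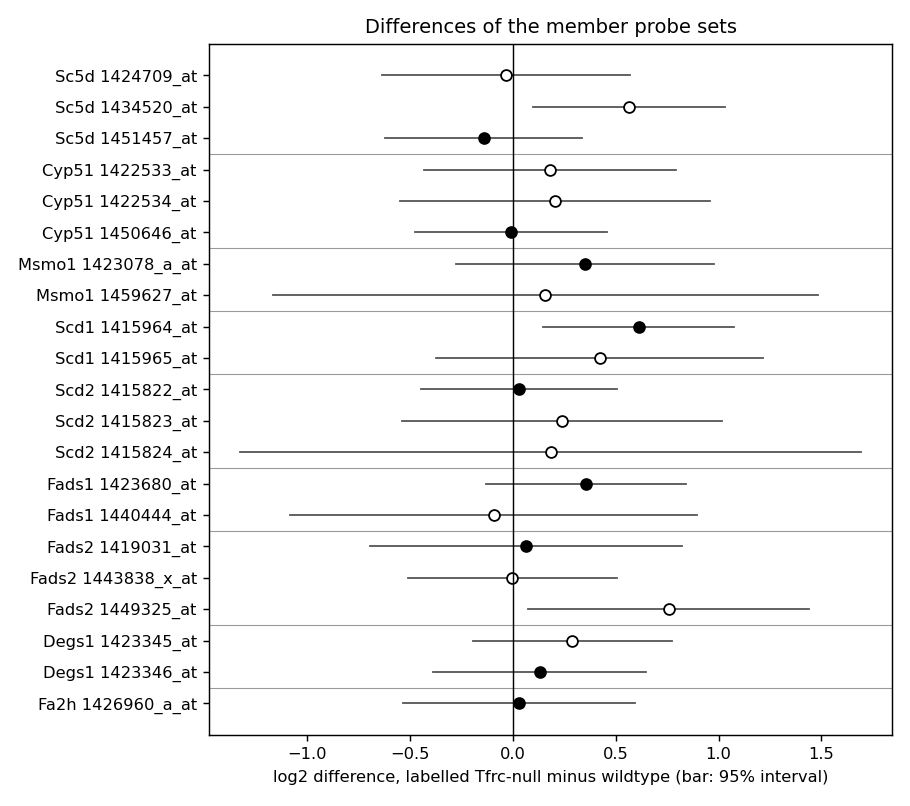
Log2 difference of each member probe set, mean of the labelled Tfrc-null arrays minus mean of the wildtype arrays, with the 95% interval of the limma fit over all probe sets with 1 gene. Filled points represent the gene; the intervals of Sc5d 1434520_at, Scd1 1415964_at and Fads2 1449325_at lie above 0 before adjustment, and none of the 21 passed after it.

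In sphingolipid synthesis, Degs1 inserts the double bond that turns dihydroceramide into ceramide. Probe set 1423346_at read 849 and 840.4 on wildtype and 829 and 1029 on labelled Tfrc-null arrays. The groups overlapped, since the labelled Tfrc-null arrays lay on either side of the wildtype pair, and the log2 difference was 0.13 (SE 0.20, adjusted p = 0.98). Probe set 1423345_at read 179 and 183 against 237 and 207, both higher, by 0.29 (SE 0.19, limma adjusted p = 0.876 over all probe sets). Fa2h, which hydroxylates fatty acids for galactolipids of myelin and epithelia, was near the control level. Its only probe set read 6.50 and 8.66 on wildtype and 7.53 and 7.77 on labelled Tfrc-null arrays. Both wildtype arrays were at or below their control level and both others just above theirs, so no fold is given and no difference can be read at this signal.

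Taking all 21 probe sets, 16 had a higher and 5 a lower mean on the labelled Tfrc-null arrays. At the gene level, 10469 of all 18194 genes had a higher mean. Of the 21 probe sets, 5 lay higher without overlap (23.8%, against 19.6% of all 34958 probe sets with 1 gene) and 1 lower (against 14.3%). Together 28.6% of the member probe sets did not overlap between groups, against 33.8% of all probe sets. An unadjusted p under 0.05 was seen for 3 of them, in Sc5d, Scd1 and Fads2, against 7.25% of all probe sets, and 0 passed after adjustment, as among all probe sets (0%). Probe sets of 1 gene share its transcripts and are not independent.

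**Figure D3:**
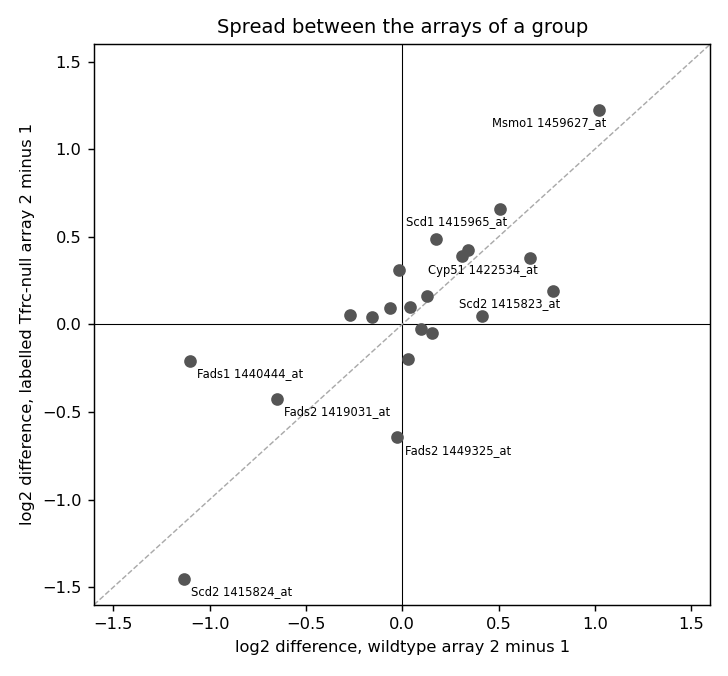
Log2 difference between the arrays of a group (replicate 2 minus replicate 1), wildtype on the horizontal and labelled Tfrc-null on the vertical axis, for the 21 member probe sets. Points near the dashed line differ alike in both groups; Msmo1 1459627_at lies at 1.02 and 1.22 and Scd2 1415824_at at -1.13 and -1.45.

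In 14 of the 21 probe sets replicate 2 differed from replicate 1 in the same direction in both groups, as the plot of the spread between arrays shows, near the 66% of all probe sets with 1 gene. At the probe sets that represent the genes this held for 4 of 9 members, against 66.8% of all genes. Beta-actin signal at the 3' end was 5.51 and 5.89 times that at the 5' end for replicate 1 of either group, and 6.49 and 7.21 times for replicate 2; this ratio tracks the length of RNA or of its amplified copies. Its part in the spread of single probe sets was not tested.

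The other genes of sterol synthesis mostly had a higher mean on the labelled Tfrc-null arrays, although 0 passed. An unadjusted limma p under 0.05 was seen for 3 of the 16 measured, against 8.02% of all genes in either direction. Of 19 listed enzymes 16 were measured, and 13 had a higher mean, where 10469 of all 18194 genes did. Of the 16, 7 were higher without overlap, where 20.6% of all genes were, and 0 lower, where 14.3% of all genes were. The list's median log2 difference was 0.26, against 0.04 for all genes. The median was 0.18 with probe sets averaged, and 0.20 to 0.28 with any 1 array left out. Those with the smallest p spread over the pathway. Hsd17b7, which reduces a sterol ketone after the Msmo1 step, read 408 and 365 on wildtype and 652 and 575 on labelled Tfrc-null arrays, a log2 difference of 0.67 (SE 0.19, adjusted p = 0.445). Mvk, the mevalonate kinase, read 95.3 and 123 against 189 and 165, a difference of 0.70 (SE 0.22, adjusted p = 0.496). Lss, which closes the sterol rings, read 108 and 145 against 173 and 215, and Pmvk, which acts after Mvk, 269 and 400.4 against 452 and 452. In each of these 4 both labelled Tfrc-null arrays were the higher pair. The 3 with a lower mean were Idi1 (-0.13), Ebp (-0.04) and Lbr (-0.01), named after their values were seen. Hmgcs1, an early enzyme of the pathway that was also named after its values were seen, differed by 0.02 (9330 and 8414 against 9043 and 8932).

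**Figure D4:**
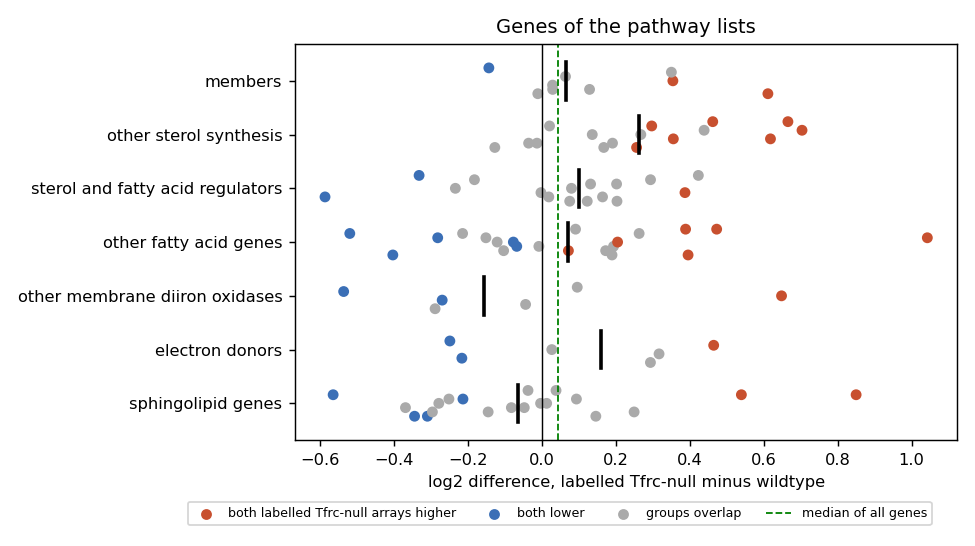
Log2 differences of single genes in the members and 6 pathway lists; red points had both labelled Tfrc-null arrays above both wildtype arrays, blue points both below, and grey points overlap. Black bars give each list's median, 0.26 for the other sterol synthesis genes, and the dashed line the median of all genes, 0.04.

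Regulators of sterol and fatty acid supply were split in direction. Of 20 listed 16 were measured, 11 had a higher and 5 a lower mean, and the median was 0.10. Of the 16, 0 passed and 0 had an unadjusted limma p under 0.05, against 8.02% of all genes. Without overlap lay 1 higher and 2 lower, 18.75% of the list against 34.9% of all genes. Npc2, which carries cholesterol out of lysosomes, was the higher (1617 and 2125 against 2311 and 2544). Abcg1, a cholesterol exporter, was lower (153 and 175 against 136 and 86.8), as was Mlxipl, a carbohydrate-responsive transcription factor (27.6 and 33.4 against 27.0 and 21.5). Srebf1, the SREBP gene tied to fatty acid synthesis, overlapped at 237 and 379 against 348 and 464. Insig1, named after its values were seen, read 2807 and 2826 against 2827 and 2795, a log2 difference of -0.0027.

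Of the other fatty acid genes, 21 of 22 listed were measured, and 11 had a higher and 10 a lower mean (median 0.07). Of these 21, 0 passed and 1 (Me1) had an unadjusted limma p under 0.05, against 8.02% of all genes. Without overlap, 6 were higher and 5 lower (52.4% together, against 34.9% of all genes, of which 20.6% higher and 14.3% lower). Me1, which supplies reducing power for fatty acid synthesis, had a log2 difference of 1.04 (SE 0.34, adjusted p = 0.512), at 70.1 and 114 on wildtype and 148 and 228 on labelled Tfrc-null arrays. The elongase Elovl1 read 622 and 685 against 951 and 863, and the fatty acid synthase Fasn 251 and 292 against 335 and 375. Acaca, which makes malonyl-CoA, read 331 and 412 against 504 and 468. The 5 lower without overlap were the elongases Elovl7 (-0.52) and Elovl2 (-0.40), Acsl4 (-0.28), Acsl3 (-0.08) and Hacd3 (-0.07), named after their values were seen.

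Other membrane enzymes with a like iron site differed in direction among themselves. Of 8 listed 6 were measured, 2 with a higher and 4 with a lower mean (median -0.16). None passed, and Fads3 (higher) and Fads6 (lower) had an unadjusted limma p under 0.05, against 8.02% of all genes. Without overlap lay 1 higher and 2 lower, 50% of the list against 34.9% of all genes. Fads3, beside Fads1 and Fads2 in the genome, read 116 and 150.3 on wildtype and 239 and 179 on labelled Tfrc-null arrays. This was higher without overlap, by 0.65 in mean log2 (SE 0.25, adjusted p = 0.60). Fads6 read 11.0 and 12.7 against 7.57 and 8.74 and Degs2 17.9 and 19.1 against 16.5 and 14.3, both lower without overlap, and Fads6 lay close to the control level on all arrays. Agmo was above its control level on 1 array only. Of the electron donors 6 of 7 were measured, 4 with a higher and 2 with a lower mean (median 0.16). Among them 0 passed and 0 had an unadjusted limma p under 0.05, against the same 8.02%. Of these donors, too, 1 lay higher and 2 lower without overlap, 50% against the same 34.9%. The reductase of cytochrome b5 Cyb5r3 read 160 and 204 against 267 and 233, higher without overlap. Cyb5r4 (330.3 and 352 against 291 and 283) and Cyb5b (925 and 916 against 853 and 736) were lower without overlap, and Cyb5r1 overlapped at 215 and 314 against 284 and 369.

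The 5 genes whose 4 log2 values, centred on their mean, lay nearest to those of Scd1 were Thbs2, Ctbs, Spata1, Sap30l and Tstd3. The distances were 0.04 to 0.08 on the log2 scale among 13571 genes above the control level on all arrays. Thbs2, a matrix protein, read 1129 and 1255 on wildtype arrays with a mean of 1806 ± 10.9 on labelled Tfrc-null arrays. With 4 arrays such likeness is a description of these samples.

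Levels of cell type markers differed between the groups. Over all genes, 10469 of 18194 had a higher and 7722 a lower mean on the labelled Tfrc-null arrays. Of 13 stromal genes, 12 had a higher mean on the labelled Tfrc-null arrays, and 10 were higher and 0 lower without overlap (76.9%, against 34.9% of all genes). The summed intensity was 14672 to 18973 on wildtype and 22221 to 25288 on labelled Tfrc-null arrays. Most of this sum came from the collagen genes Col1a1, Col1a2 and Col3a1, of which Col3a1 overlapped between groups. Ureteric bud and collecting duct genes were lower in 16 of 17 (summed 8165 to 9074 against 3493 to 4296), endothelial genes in 11 of 11 (5441 to 6355 against 3120 to 3842) and erythroid genes in 9 of 9 (1607 to 4422 against 220.4 to 254.6). Without overlap, 11, 7 and 9 of these genes were lower and 0 higher. These were 64.7%, 63.6% and 100% of the lists, against 34.9% of all genes. Leukocyte genes had 5 of 10 lower, with sums of 8542 to 11903 against 4538 to 4941. Nearly all of this gap lay in the granulocyte genes S100a8 (2018 and 3857 against 71.0 and 358) and S100a9 (2264 and 3360 against 22.0 and 157). Without overlap, 5 were lower and 2 higher, 70% of the list against 34.9% of all genes. The 2 higher were Csf1r (1404 and 1862 against 1879 and 1879) and Pf4 (368 and 427 against 876 and 784), Pf4 being named after its values were seen. Proximal tubule genes had 7 of 8 lower (summed 2423 to 3452 against 2450 to 2735) and cap mesenchyme genes 7 of 10 (3509 to 4195 against 3045 to 3370). Steroidogenic genes had 4 of 8 higher (summed 132 to 145 against 180.0 to 187). The corticotropin receptor gene Mc2r, at 40.7 and 28.9 against 80.3 and 78.9 (log2 difference 1.22, SE 0.23, adjusted p = 0.253), made up nearly all of the gap between these sums. Without overlap lay 2 higher and 2 lower, 50% of the list against 34.9% of all genes. The 2 lower were Cyp21a1 (34.2 and 37.2 against 26.9 and 32.0) and Nr5a1 (10.6 and 10.5 against 7.36 and 6.91), Nr5a1 being named after its values were seen. Hsd3b1 and Cyp17a1 were not above the control level on any array. Schwann cell and myelin genes had 6 of 8 lower (summed 2286 to 2562 against 2402 to 3165), and Mag was not above that level on any array. Most of these sums came from Pmp22, which was higher without overlap (1451 and 1823 against 1916 and 2714). Without overlap, 1 was higher and 4 were lower, 62.5% of the list against 34.9% of all genes. Of the 6 adipocyte genes measured, 4 had a higher mean (summed 90.1 to 98.7 against 94.4 to 124), and Adipoq, Lep and Cidec were not above the control level on any array. The part of cell composition in the values of Scd1, Fads1 and the sterol genes was not tested, and in bulk samples fewer cells of a type and less RNA per cell cannot be told apart.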

How the data were processed

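The authors deposited a linear intensity for each of 45101 probe sets. Per the submitters' processing notes RMA was used; the sources used here give neither version nor settings, nor how log2 output became linear. RMA equalises arrays, so a shift shared by most genes would not be seen. Log2 was taken here and nothing else was normalized (median intensity 17.5 to 19.3). The annotation gave 1 symbol for 34958, several for 932 and none for 9211, and symbols were updated by Entrez identifier through RefSeq (GRCm38.p6), which held 18033 of 18194 genes. Differences are labelled Tfrc-null minus wildtype means of log2 values, compared by limma 3.58.1 under R 4.3.3 (lmFit, eBayes, no block, threshold 0.05 after Benjamini-Hochberg); the scripts were tested on simulated data. Intervals are 95% and from that model. Other probe sets carry values from a second fit over the 34958. Precision is limited by the number of arrays. Alternatives were the mean of probe sets, the probe set level, a replicate block, a filter on dim probe sets, an offset of 16, quantile normalization, a prior trend and each array left out. Members and lists were chosen with earlier results of these data known. The text names every member, up to 4 genes of smallest p per list, up to 3 of the highest mean per marker list, and the 5 genes most like the member with the largest moderated t. Others are said to be named after their values were seen, except cell type markers given for their presence or absence. Listed genes without a probe set of 1 symbol were not analysed here.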

Additional observations from a re-analysis of the deposited data

How the results depend on the processing

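In none of the 10 alternative fits or at the probe set level did a member pass the threshold. The number of genes passing was 1 when a gene's probe sets were averaged (Stfa3) and 2 under the replicate block or an intensity trend (Stfa2l1 and Stfa3), and 0 otherwise. The labels give arrays numbered alike nothing in common but the number. Their deviations from the group mean nonetheless correlated at r = 0.51 across 18194 genes, which are not independent. The replicate block left 0 members past the threshold, with limma adjusted p = 0.219 for Scd1. With this block 2691 genes had an unadjusted limma p under 0.05, against 1459 in the fit reported, which has no block. Scd1, Msmo1 and Fads1 kept their direction in all 10 fits, but Fads1 was at 0.13 with probe sets averaged. Leaving Fa2h aside, whose signal is near the control level, 72 of 80 differences of the members kept theirs. Those that turned had differences between -0.14 and 0.13 in the fit reported. With probe sets averaged, Sc5d was at 0.13 and Cyp51 at 0.12. Single probe sets opposed the one used in Cyp51 (0.18 and 0.20), Sc5d (0.56), Fads1 (-0.094) and Fads2 (-0.0030). With 1 array left out, differences ranged from -0.058 to 0.036 for Cyp51, -0.049 to 0.11 for Scd2, -0.26 to 0.39 for Fads2, -0.027 to 0.28 for Degs1, -0.22 to -0.065 for Sc5d and 0.14 to 0.56 for Msmo1; the cause was not tested. The fitted values of Fa2h ran from -0.18 to 0.24 and cannot be read as differences at its signal. The number of members without overlap was 5 at the probe set level, where a gene counts if any of its probe sets is separated, and 5 to 7 with 1 array left out, where fewer arrays make separation easier (64.1% to 71.5% of all genes). The sterol list's median was 0.18 with the mean of probe sets and 0.20 to 0.28 with 1 array left out, and that of the other fatty acid genes -0.031 to 0.043. Signal over background limits Fa2h and the dim probe sets of Sc5d and Scd1.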

Other observations

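Sphingolipid genes other than the members had a median log2 difference of -0.07, with 7 of 20 measured genes higher and 13 lower in mean, and 0 past the limma threshold (adjusted over all genes). Sphk1, a sphingosine kinase, read 11.9 and 12.0 on wildtype and 19.6 and 23.6 on labelled Tfrc-null arrays, a log2 difference of 0.85 (SE 0.20, adjusted p = 0.323). The ceramide synthase Cers4 was also higher without overlap, at 37.5 and 36.7 against 47.9 and 60.7. Without overlap lay 2 higher and 4 lower, 30.0% of the list against 34.9% of all genes. The 4 lower were Ugt8a, which makes galactosylceramide (59.5 and 104 against 48.2 and 58.8), Sptlc1, a subunit of the first enzyme of the pathway (658 and 671 against 473 and 579), the ceramidase Asah1 (-0.31) and Cers3 (-0.21), both named with their values in view.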
